A study of Xenopus tropicalis with 52 samples.

Results

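The siamois genes sia1 (Xetro.K00673) and sia2 (Xetro.K00672) of the frog Xenopus tropicalis were taken by name from the deposited counts, as 2 of the 28148 genes counted in every poly(A) RNA library and 2 of the 19289 gene lines of a table of 4sU-labelled RNA. In genome assembly v7.1, sia2 lies on scaffold 40 at 14308 to 15547 and sia1 on the same scaffold at 27013 to 36423, with the related gene sia.3 (Xetro.N001) between them at 23551 to 25272. Each interval spans the whole gene, exons and introns together. The close spacing and the kinship of the genes matter for the values below, because the reads were counted without strand and reads that fall on a near-identical copy could be split between them, so that the level of each single gene is uncertain to that extent.

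Siamois genes encode homeobox transcription factors. In the Xenopus blastula, maternal Wnt signaling stabilizes β-catenin on the dorsal side, where it enters the nucleus and works with Tcf factors at the siamois promoters, and Siamois proteins then activate organizer genes such as gsc. The Spemann organizer that forms there secretes inhibitors of BMP and Wnt signaling and patterns the dorsoventral axis.

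The data came from whole wild-type embryos in 3 experiments. At stage 9+ (late blastula) poly(A) RNA was sequenced from 7 loss-of-function (LOF) groups and 1 control group, with 3 libraries each. In Wnt LOF, zygotes received 5 ng of a morpholino (MO) that blocks translation of β-catenin. In Nodal LOF, embryos were kept in 100 µM SB431542, an inhibitor of Nodal receptors, and in BMP LOF in 10 µM LDN193189, an inhibitor of BMP receptors. The combinations were Wnt/Nodal, Wnt/BMP, Nodal/BMP and Wnt/Nodal/BMP LOF, and controls were uninjected embryos in DMSO. In the T-box experiment, 4x zT LOF embryos received MOs against 4 zygotic T-box factors (zygotic VegT, Eomes, Tbxt and Tbxt.2), control embryos received 20 ng of control MO, and both were collected at stages 10+, 11+ and 12+ (early, mid and late gastrula) with 4 libraries each. In the third experiment, total RNA from embryos injected with the uridine analogue 4sU was sequenced before and after selection of the labelled RNA, with 1 library of each kind at stage 8+ (the mid-blastula transition) and at stage 10+.

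Several features limit these groups as models. Each library came from a pool of embryos. The stage 9+ control was not injected, so that injection of an MO and loss of β-catenin cannot be told apart, and because the MO blocks translation, the ctnnb1 transcript does not check the LOF. It had 2207 to 2459 exon counts per 1000000 (CPM, with library sizes scaled by TMM) in the 12 libraries with the MO and 2172 to 3158 CPM in the 12 without. In whole embryos, fewer cells that express a gene and less RNA per cell cannot be told apart. A stage 9+ library held between 27710453 and 45443446 exon counts and a T-box library between 26586752 and 60984753, and all 4 animal and all 4 endodermal markers checked were detected in every group. Markers of other regions differed between Wnt LOF and control at stage 9+. The summed level of the 4 animal markers (foxi4.2, tfap2a, grhl3 and sox3) was 1498 to 1886 CPM in Wnt LOF and 667 to 1127 CPM in control, and that of the 4 endodermal markers (sox17a, sox17b, gata5 and mixer) was 379 to 859 CPM in Wnt LOF and 864 to 1211 CPM in control. The 3 mesodermal markers found (eomes, fgf8 and mespb) summed to 221 to 516 CPM in Wnt LOF and 590 to 631 CPM in control, and the ventral markers ventx1.2 and szl to 165 to 299 CPM in Wnt LOF and 49.95 to 121 CPM in control. The other groups with the MO did not all share these shifts. In Wnt/BMP LOF the animal sum (841 to 1363 CPM) and the ventral sum (44.8 to 120 CPM) overlapped those of control. So did those of Wnt/Nodal/BMP LOF (1034 to 1410 and 57.5 to 115 CPM). In Nodal LOF, without the MO, the endodermal sum was 143 to 333 CPM and the mesodermal sum 67.0 to 129 CPM. The part of these markers in the results below was not tested. The markers of late tissues that were found, hba1, myh6 and actc1, summed to at most 0.468 CPM in any library at stage 9+.

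The first comparison asked whether siamois RNA at stage 9+ was lost in embryos with the β-catenin MO. Maternal and zygotic Wnt signaling, which both act through β-catenin, cannot be told apart with it. In Wnt LOF, sia1 RNA was all but lost. Its exon counts were 0, 0 and 1 in Wnt LOF, against 253, 298 and 612 in control, or 8.25, 7.34 and 17.7 CPM in control. No Wnt LOF library came near the lowest control library.

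The summed counts, scaled by library size, were 1235-fold lower in Wnt LOF than in control, with a 95% interval of 221 to 48821 from the single count. Intervals given here cover counting error only. In the quasi-likelihood test of edgeR over all 24 libraries, sia1 fell with a fitted log2 fold change of -9.82 ± 1.42 (SE) and a Benjamini-Hochberg adjusted p of 0.00213. The fitted size depends on the prior count where a group is almost at 0. Each SE of a fitted change given here is approximate, being the size of the change divided by the square root of the test's F statistic. It does not bound the size of a loss to almost 0. Among the 16001 genes tested, 0.887% were called lower in Wnt LOF, with a threshold of 0.1 on the adjusted p (2.72% in a fit with replicate number as block).

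sia2 was lost in the same embryos. Its exon counts were 1, 0 and 0 in Wnt LOF, against 5, 16 and 65 in control, or 0.163, 0.394 and 1.88 CPM in control. Here the groups did not overlap either, although the control libraries differed more from each other than those of sia1.

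The summed counts of sia2 were 91.3-fold lower in Wnt LOF than in control, with a 95% interval of 15.96 to 3649. The edgeR test gave a log2 fold change of -6.02 ± 1.25 (SE) and an adjusted p of 0.0266. Both siamois genes were thus among the called genes, and groups that do not overlap in the lower direction were seen for 4.26% of all genes tested. With replicate 2 of every group left out, when edgeR called 13 genes in this comparison, the adjusted p was 0.203 for sia1 and 0.644 for sia2, and sia2 also lost its call without replicate 1 (0.171) or replicate 3 (0.424).

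**Figure D1:**
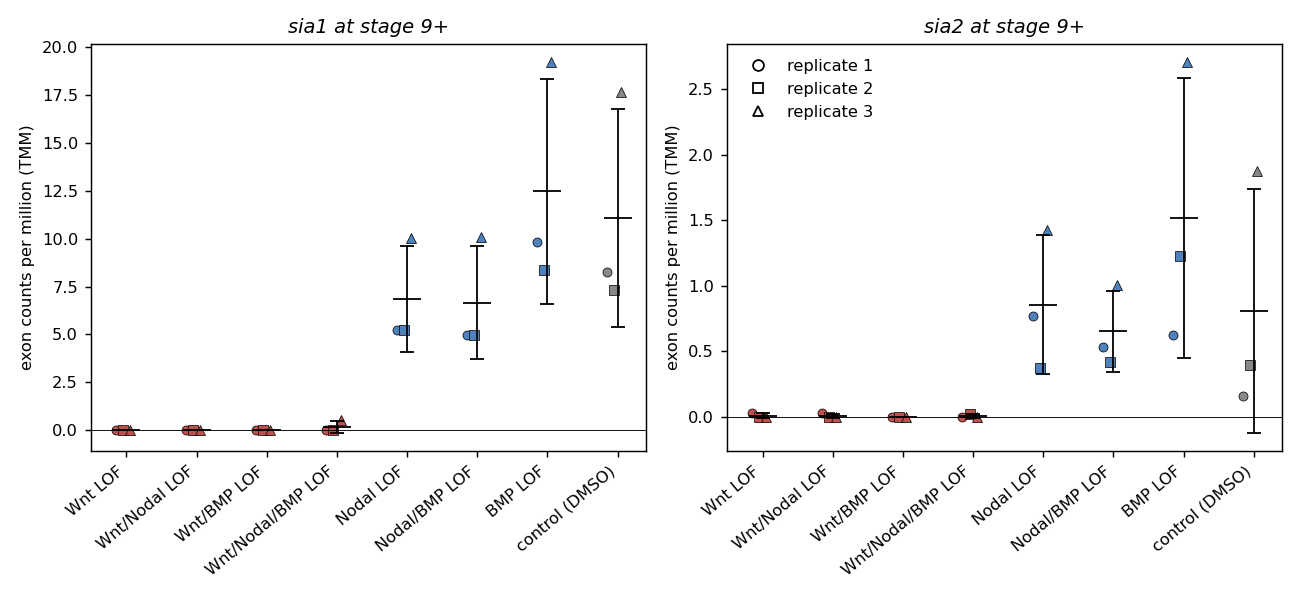
CPM of exon counts (TMM-scaled, linear axis) of sia1 (left) and sia2 (right) at stage 9+, with 1 point per library (circle, square and triangle for replicates 1, 2 and 3) and the mean ± SD of 3 libraries. The 12 libraries with β-catenin MO (red) lie at or near 0 for both genes, and the triangle is the highest point in each of the other 4 groups.

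Adding Nodal or BMP inhibitors to the MO left both genes near 0. In Wnt/Nodal LOF, sia1 had 0 counts in each of the 3 libraries and sia2 had 1, 0 and 0. In Wnt/BMP LOF, both genes had 0 counts in each of the 3 libraries. A group at 0 allows up to 3 counts over its libraries, which puts sia1 at least 365-fold lower in Wnt/Nodal LOF and at least 385-fold lower in Wnt/BMP LOF than in control, and sia2 at least 28.5-fold lower in Wnt/BMP LOF.

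With 1 count, sia2 was 80.9-fold lower in Wnt/Nodal LOF than in control (95% interval of 14.1 to 3233). The edgeR adjusted p for Wnt/Nodal LOF was 0.00102 for sia1 and 0.0155 for sia2, where 2.1% of genes were called lower (4.37% with the block). For Wnt/BMP LOF it was 0.00191 for sia1 and 0.0116 for sia2, where 1.43% of genes were called lower (5.09% with the block). Both genes lay below the control without overlap in these groups, as did 5.24% of all genes in Wnt/Nodal LOF and 5.69% in Wnt/BMP LOF. Leaving out replicate 2 ended the call of sia1 in Wnt/BMP LOF (adjusted p = 0.168), and leaving out any 1 replicate ended that of sia2 in both groups (adjusted p of 0.111 to 0.421).

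The embryos that lacked all 3 signals held an exception. sia1 had 0, 0 and 24 counts in Wnt/Nodal/BMP LOF replicates 1, 2 and 3, against 253, 298 and 612 in control. The single high library lay at 0.526 CPM, still far below the lowest control library at 7.34 CPM. sia2 had 0, 1 and 0 counts in these embryos, so that the library with 24 sia1 counts had no sia2 count.

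In that library sia1 stood at 2.98% of control replicate 3 (95% interval of 1.89% to 4.48%). nodal3.1, which encodes a divergent Nodal-related ligand and is another early target of β-catenin, had 63 counts there, or 2.51% of control replicate 3 (1.92% to 3.23%). sia.3 had 3 counts, or 6.51% (1.28% to 20.7%), while the 0 counts of sia2 allow up to 4.44% (the upper bound of the same interval). The library therefore held low levels of sia1 and nodal3.1 RNA, while the 3 counts of sia.3 equal the floor used for a group at 0. The other 2 libraries of the group held 0 and 3 counts of nodal3.1. nodal5 and nodal6, also early targets of β-catenin, did not single out replicate 3. In replicates 1, 2 and 3 of the group, nodal5 stood at 0.0%, 7.12% and 7.86% of the control of the same number. nodal6 stood at 21.4%, 31.3% and 18.3%. The organizer genes chrd and gsc had 177 and 28 counts in the same library, or 1.65% and 0.555% of control replicate 3. In replicates 1 and 2 of the group, chrd had 0 and 6 counts and gsc 1 and 1. Outside the group, chrd reached at most 18 counts with the MO, but gsc did not single out this library. Wnt LOF replicate 2 held 46 gsc counts (0.958% of the control of the same number) without a sia1 count. Replicates 2 and 3 of Wnt/BMP LOF, also at 0 for sia1, held 37 and 46 (0.986% and 1.23%). The remaining libraries with the MO had at most 7 gsc counts.

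Over the group, the summed counts of sia1 were 60.0-fold lower in Wnt/Nodal/BMP LOF than in control (95% interval of 40.2 to 94.1) and those of sia2 107-fold lower (18.6 to 4257). The edgeR adjusted p was 0.00483 for sia1 and 0.00875 for sia2, and 2.62% of genes were called lower (5.52% with the block), while 5.8% lay below the control without overlap. Without replicate 3 of this group, the adjusted p was 0.000193 for sia1 and 0.0570 for sia2. Without replicate 2 of every group it was 0.211 for sia1 and 0.234 for sia2, without replicate 3 of every group 0.187 for sia2, and a fit of only these 2 groups gave 0.148 for sia1.

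Whether the combined LOFs differed from Wnt LOF alone could hardly be measured, since the counts were already at 0 or 1. sia1 was not called in Wnt/Nodal, Wnt/BMP or Wnt/Nodal/BMP LOF against Wnt LOF (edgeR adjusted p = 1 each), and neither was sia2. Of all genes, 0.144%, 0.0% and 0.244% were called lower in these 3 comparisons and 0.00625%, 0.00625% and 0.0312% higher. The unadjusted p was 0.0287 for sia1 in Wnt/Nodal/BMP against Wnt LOF, at a log2 difference of 3.89, and this rested on the 1 library described above, without which the difference was -1.83. None of the 3 interaction tests between pairs of signals called sia1 or sia2 (edgeR adjusted p of at least 0.999 and unadjusted p of at least 0.220), and 0.0% of all genes were called in either direction in each, while a DESeq2 Wald test called 4 genes for Wnt by Nodal.

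Over all 12 libraries with the MO, sia1 had 25 exon counts in all and 10 libraries at 0, and sia2 had 3 exon counts in all and 9 libraries at 0. The 12 libraries without the MO held 3930 counts of sia1, from 181 to 640 per library, and 405 of sia2, from 5 to 90. The 3 counts that a count of 0 allows correspond to 0.0658 to 0.102 CPM in a library with the MO.

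The second question was whether Nodal or BMP signaling affected the siamois genes when Wnt signaling was intact. Both genes stayed on in all 3 groups, and neither passed the test. sia1 had 5.23, 5.23 and 10.0 CPM in Nodal LOF, against 8.25, 7.34 and 17.7 CPM in control. With both inhibitors it had 4.94, 4.98 and 10.1 CPM, and in BMP LOF 9.84, 8.36 and 19.2 CPM. All 3 groups overlapped with the control in range.

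Mean levels of sia1 were 12.5 ± 5.89 CPM in BMP LOF, 6.83 ± 2.77 CPM in Nodal LOF, 6.67 ± 2.96 CPM in Nodal/BMP LOF and 11.1 ± 5.72 CPM in control (SD, n = 3 each). Within replicate numbers, sia1 stood at 63.3%, 71.3% and 56.8% of control in Nodal LOF, at 59.9%, 67.9% and 57.1% with both inhibitors and at 119%, 114% and 109% with the BMP inhibitor alone. All 6 libraries with the Nodal inhibitor alone or with the BMP inhibitor were thus below the control of the same number.

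The log2 fold changes of sia1 were 0.17 ± 0.81 in BMP LOF, -0.70 ± 0.82 in Nodal LOF and -0.73 ± 0.82 with both inhibitors (SE), and the edgeR adjusted p was at least 0.999 in each. A block for the replicate number gave 0.19 ± 0.31, -0.65 ± 0.31 and -0.70 ± 0.31 in the same order, with unadjusted p of 0.549, 0.0562 and 0.0420, and again none passed the adjusted threshold (0.996, 0.729 and 0.490). In these comparisons 0.0% of all genes were called lower in BMP LOF (0.0312% with the block), 0.669% in Nodal LOF (2.07%) and 0.506% with both inhibitors (2.25%).

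sia2 had 0.770, 0.376 and 1.42 CPM in Nodal LOF, against 0.163, 0.394 and 1.88 CPM in control. With both inhibitors it had 0.534, 0.419 and 1.01 CPM, and in BMP LOF 0.629, 1.22 and 2.70 CPM. The groups overlapped here too, and the lowest of these 12 libraries was control replicate 1 with 5 counts.

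The log2 fold changes of sia2 were 0.90 ± 0.84 in BMP LOF, 0.0792 ± 0.84 in Nodal LOF and -0.31 ± 0.84 with both inhibitors (SE), each with an edgeR adjusted p of at least 0.999. sia2 was above the control of the same number in all 3 BMP LOF replicates, by 3.86-fold, 3.11-fold and 1.44-fold, and with the block the difference was 1.07 ± 0.47 with an unadjusted p of 0.0384 and an adjusted p of 0.896. Of all genes, 0.0% were called higher in BMP LOF, 0.0125% in Nodal LOF and 0.0687% with both inhibitors. In order of mean level, the groups ran BMP LOF, control, Nodal LOF and Nodal/BMP LOF for sia1 and BMP LOF, Nodal LOF, control and Nodal/BMP LOF for sia2. Neighbours in both orders overlapped, and all 4 groups lay above all 4 groups with the MO.

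Among the 4 groups without the MO, replicate 3 was the highest library in 4 of 4 groups for sia1 and in 4 of 4 for sia2. Its mean over these groups was 14.2 CPM for sia1, against 6.77 CPM in replicates 1 and 2, and 1.75 CPM for sia2, against 0.564 CPM. The same held for nodal3.1, with 42.3 CPM in replicate 3 and 22.8 CPM in the other replicates. It did not hold for nodal6, which was highest in replicate 3 in 1 of 4 groups, with 5.21 CPM there and 4.67 CPM in the other replicates. nodal5 was highest in replicate 3 in control, BMP LOF and Nodal/BMP LOF and in replicate 2 in Nodal LOF. Of the organizer genes, gsc was highest in replicate 3 in 1 of 4 groups and chrd, which encodes the BMP antagonist Chordin, in 2 of 4. The study used replicates to cover variation between clutches, but the labels do not tie a number to a clutch, and its part in the siamois levels was not tested.

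The neighbour sia.3 had 1, 1 and 0 counts in Wnt LOF, against 6, 7 and 35 in control. The summed counts were 25.5-fold lower in Wnt LOF (95% interval of 6.68 to 216), and the edgeR adjusted p was 0.1002, just above the threshold, or 0.0075 with the replicate block. sia.3 had 0 counts in all libraries of Wnt/Nodal and Wnt/BMP LOF, where the adjusted p was 0.0167 and 0.0242, and 0, 0 and 3 counts in Wnt/Nodal/BMP LOF, where it was 0.0565. These 3 calls of sia.3 were also lost with replicate 2 left out (adjusted p of 0.326, 0.456 and 0.629) and with replicate 1 left out (0.165, 0.179 and 0.230).

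The other early β-catenin targets are genes for Nodal ligands. nodal3.1 had 2, 2 and 5 counts in Wnt LOF, against 654, 1383 and 1907 in control, and its edgeR log2 fold change was -8.79 ± 1.096 (adjusted p = 0.000296). nodal5 also fell, with a log2 change of -4.62 ± 1.13 (adjusted p = 0.0657). nodal6 was not called, at -2.08 ± 0.73 (adjusted p = 0.406). Together 2 of these 3 genes were called lower in Wnt LOF, against 0.887% of all genes, with a median of -4.62, against a median of 0.01 over all genes tested.

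Among organizer genes, 10 of 12 were called lower in Wnt LOF (0.887% of all genes) and 0 higher (0.262% of all genes). Their median log2 fold change was -5.57. No group lacked Siamois alone, so its part in these changes was not tested. The exceptions by the test were lhx1 and foxa4, at -2.37 ± 0.74 (adjusted p = 0.272) and -2.04 ± 0.79 (adjusted p = 0.613). gsc changed by -7.92 ± 0.90 (adjusted p = 6.7e-05) and chrd by -10.11 ± 1.03 (adjusted p = 2.2e-05). In Nodal LOF, where the siamois genes were not called, 5 of the 12 organizer genes were called lower (0.669% of all genes), gsc among them at -4.06 ± 0.72 (adjusted p = 0.0116), and chrd was not called at -2.64 ± 0.68 (adjusted p = 0.125). Both inhibitors together gave 6 of 12 called lower (0.506% of all genes). The BMP inhibitor alone gave 0, where 0.0% of all genes were called in either direction. At that share, 0 of 12 does not set these genes apart.

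Of the 14 maternal Wnt pathway genes found, 0 were called in Wnt LOF, where 0.887% of all genes were called lower and 0.262% higher. At such shares, 0 of 14 does not set these genes apart. Their median log2 fold change was -0.04. On the opposite side of the axis, 2 of 9 ventral genes were called higher in Wnt LOF, as were 0.262% of all genes. These were ventx3.1, a ventral homeobox gene, at 0.80 ± 0.20 (adjusted p = 0.0810), and szl, which encodes the secreted factor Sizzled, at 2.65 ± 0.64 (adjusted p = 0.0609).

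Over the 24 libraries of stage 9+, the genes most like sia1 in log2 CPM, out of 10034 with a symbol and a mean of at least 50 counts, were nodal3.1 (Pearson's r = 0.995), chrd (0.981), admp (0.976), atad2b (0.975) and arpc2 (0.972). Those most like sia2 were rpa2 (0.937), gdpd5 (0.932), hyou1 (0.927), nodal3.1 (0.926) and atad2b (0.914), and sia1 and sia2 had an r of 0.935 with each other. The neighbour sia.3 was not among the 10034 genes. Its r was 0.964 with sia1 and 0.969 with sia2, the latter above every gene listed for sia2. The libraries form separate clusters with and without the MO, and these values largely measure that split. Within the 12 libraries without the MO, r with sia1 was 0.896 for nodal3.1 and 0.861 for admp, but 0.618 for chrd, 0.593 for atad2b and -0.272 for arpc2. With sia2 it was 0.717 for rpa2, 0.704 for nodal3.1, 0.575 for gdpd5, 0.555 for hyou1 and 0.119 for atad2b, and sia1 and sia2 had an r of 0.713. For sia.3 in these libraries, r was 0.764 with sia1 and 0.876 with sia2.

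Several of these genes were far from lost in the embryos with the MO. arpc2, which encodes a subunit of the actin-nucleating Arp2/3 complex, averaged 24.5 ± 2.60 CPM in Wnt LOF and 83.6 ± 3.18 CPM in control (SD, n = 3 each). atad2b averaged 279 ± 8.16 CPM in Wnt LOF and 396 ± 10.8 CPM in control. rpa2, which encodes a subunit of the single-stranded DNA binding protein RPA, averaged 45.9 ± 3.90 CPM in Wnt LOF and 76.6 ± 13.0 CPM in control. All 4 groups with the MO shared these lower levels, and injection and loss of β-catenin cannot be told apart for them.

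In the T-box experiment, the control MO embryos give the course of siamois RNA through gastrulation. Both genes dropped between stages 10+ and 11+. sia1 had 460, 413, 329 and 341 exon counts at stage 10+, 74, 120, 32 and 42 at stage 11+, and 4, 1, 1 and 0 at stage 12+. Mean levels were 7.30 ± 2.34 CPM at stage 10+, 1.63 ± 1.04 CPM at stage 11+ and 0.0467 ± 0.0479 CPM at stage 12+ (SD, n = 4 each). No library of a later stage reached the lowest of the stage before, as for 23.3% of all genes at stage 11+ and 29.0% at stage 12+.

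sia2 had 40, 53, 31 and 35 counts at stage 10+, 2, 5, 5 and 8 at stage 11+, and 6, 4, 3 and 3 at stage 12+. Its mean levels were 0.765 ± 0.333 CPM, 0.114 ± 0.0447 CPM and 0.137 ± 0.0377 CPM at these stages (SD, n = 4 each). Stages 11+ and 12+ overlapped for sia2.

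Between stages 10+ and 11+ the log2 change was -2.16 ± 0.40 for sia1 (edgeR adjusted p = 0.000104) and -2.69 ± 0.50 for sia2 (adjusted p = 9.0e-05), while 29.2% of the 17188 genes tested were called lower. Between stages 11+ and 12+ sia1 changed by a further -4.94 ± 0.59 (adjusted p = 1.7e-07), where 36.0% of genes were called lower, and sia2 by 0.24 ± 0.56 (adjusted p = 0.723), where 36.3% were called higher.

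Both siamois genes were higher in 4x zT LOF than in control MO over the gastrula stages. At stage 10+ sia1 had 8.57, 13.9, 9.36 and 11.4 CPM in 4x zT LOF, against 9.05, 9.50, 4.74 and 5.90 CPM in control MO. At stage 11+ it had 2.56, 4.82, 2.78 and 5.78 CPM in 4x zT LOF, against 1.97, 2.96, 0.762 and 0.844 CPM in control MO. At stage 12+ its counts were 7, 15, 10 and 7 in 4x zT LOF, against 4, 1, 1 and 0 in control MO. The groups overlapped at stages 10+ and 11+ and did not at stage 12+, where 16.9% of all genes tested were higher without overlap.

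Over the 3 stages the log2 fold change of sia1 in 4x zT LOF was 1.104 ± 0.27 (edgeR adjusted p = 0.00243), in a comparison that called 21.6% of all genes higher. By stage it was 0.57 ± 0.38 at stage 10+ (adjusted p = 0.415), 1.29 ± 0.40 at stage 11+ (adjusted p = 0.0182) and 2.24 ± 0.66 at stage 12+ (adjusted p = 0.0132), where 9.37%, 16.8% and 21.4% of genes were called higher. When replicate numbers entered as a block, the sia1 change at stage 10+ was 0.60 ± 0.25 and passed the threshold (adjusted p = 0.0826, with 16.4% of genes called higher). Its call at stage 11+ ended with replicate 4 left out (0.83, adjusted p = 0.228), in which sia1 was 6.85-fold above the control of the same number.

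sia2 had 1.59, 2.28, 1.63 and 3.17 CPM in 4x zT LOF at stage 10+, against 0.787, 1.22, 0.447 and 0.606 CPM in control MO. At stage 11+ it had 0.235, 0.485, 0.292 and 0.807 CPM in 4x zT LOF, against 0.0533, 0.123, 0.119 and 0.161 CPM in control MO. At stage 12+ its counts were 9, 13, 1 and 7 in 4x zT LOF, against 6, 4, 3 and 3 in control MO. The groups did not overlap at stages 10+ and 11+, as was seen in the higher direction for 9.07% and 12.6% of all genes, and overlapped at stage 12+.

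Over the stages sia2 was higher in 4x zT LOF by 1.37 ± 0.30 on the log2 scale (edgeR adjusted p = 0.00084). It was higher by 1.51 ± 0.43 at stage 10+ (adjusted p = 0.0228) and by 1.95 ± 0.50 at stage 11+ (adjusted p = 0.00537), and was not called at stage 12+ at 0.44 ± 0.54 (adjusted p = 0.581). The call at stage 10+ ended with replicate 4 left out (1.17, adjusted p = 0.223). Whether the change differed between stages was tested directly and not called, with a stage by condition adjusted p of 0.262 for sia1 and 0.321 for sia2, in a test that called 27.1% of genes.

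**Figure D2:**
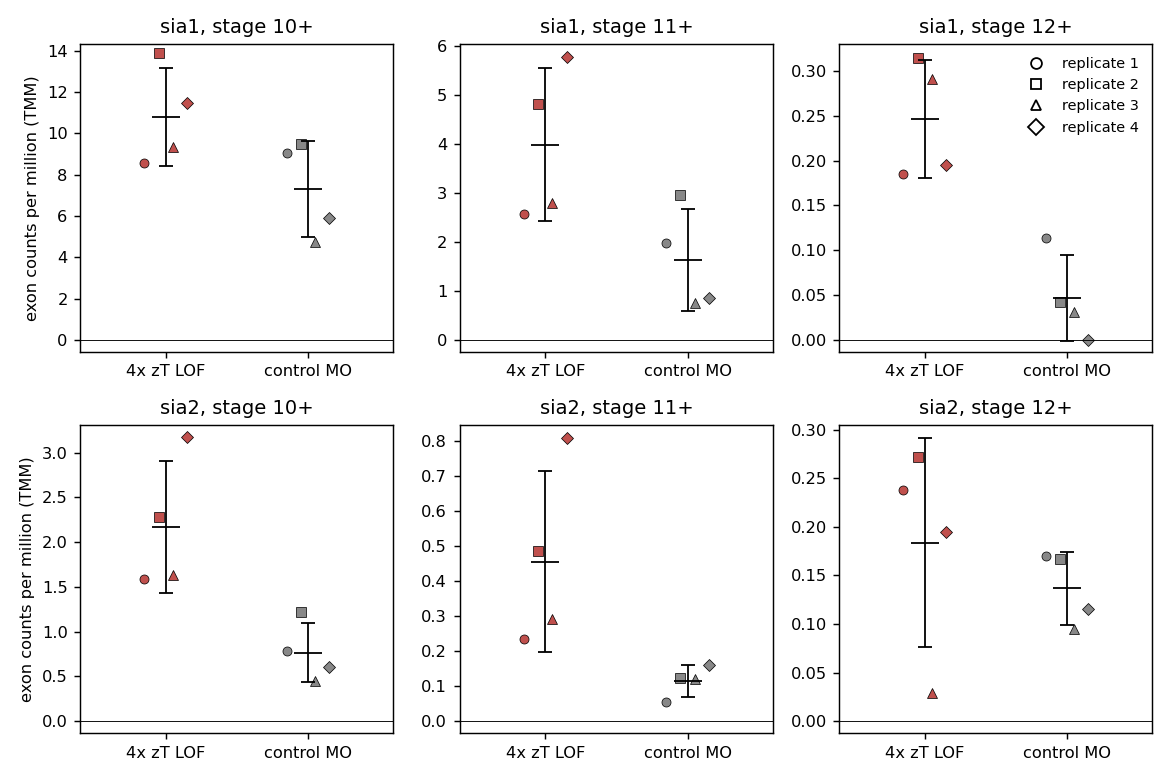
CPM of exon counts (TMM-scaled, linear axes that differ between panels) of sia1 (top) and sia2 (bottom) at stages 10+, 11+ and 12+, with 4x zT LOF to the left of control MO in each panel, 1 point per library and the mean ± SD of 4 libraries. The groups do not overlap for sia2 at stages 10+ and 11+ and for sia1 at stage 12+.

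The neighbour sia.3 rose over the stages in 4x zT LOF by 2.103 ± 0.47 (edgeR adjusted p = 0.00111), with 34, 31, 18 and 31 counts at stage 10+ in 4x zT LOF, against 14, 10, 2 and 8 in control MO. Of the other early β-catenin targets, nodal5 was higher over the stages by 1.18 ± 0.29 (adjusted p = 0.00262) and nodal6 by 1.87 ± 0.35 (adjusted p = 0.000212), and all 3 of 3 were called higher, as were 21.6% of all genes. In contrast, 5 of 12 organizer genes were called lower over the stages and 0 higher, with a median of -0.26, while 20.3% of all genes were called lower. At stage 11+ alone 4 were called lower and 1 higher, and at stage 12+ 5 lower and 1 higher. Of all 17188 genes tested, 5785 and 6489 were called in either direction at these stages, and 16.8% and 21.4% were called higher. gsc was not called over the stages at -0.02 ± 0.16 (adjusted p = 0.936), and chrd was lower at -0.44 ± 0.10 (adjusted p = 0.00112). The gsc value joins changes in opposite directions. Its mean was 110%, 144% and 58.6% of control MO at stages 10+, 11+ and 12+, with overlapping groups at each stage. Every 4x zT LOF library was above the control of the same number at stage 11+ and below it at stage 12+. The summed level of the dorsal markers gsc and chrd was 251 to 312 CPM in 4x zT LOF and 233 to 330 CPM in control MO at stage 10+, and 173 to 279 CPM in 4x zT LOF and 339 to 380 CPM in control MO at stage 12+.

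Markers of other regions moved in the same embryos. The 4 endodermal markers summed to 532 to 748 CPM in 4x zT LOF and 753 to 1138 CPM in control MO at stage 10+. The 3 mesodermal markers, which include the MO target eomes, summed to 575 to 707 CPM in 4x zT LOF and 289 to 346 CPM in control MO at stage 11+. Of this, eomes alone had 502 to 620 CPM in 4x zT LOF and 197 to 229 CPM in control MO. The sum thus mostly follows eomes and does not show a rise of fgf8 or mespb. The markers of late tissues summed to 35.3 to 57.1 CPM in 4x zT LOF and 204 to 388 CPM in control MO at stage 12+. The part of these markers in the siamois levels was not tested.

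The balance between sia1 and sia2 was followed as the sia1 share of their summed exon counts within a library. This is a share of counts and not of transcripts, because the genes differ in length. At stage 9+ the share was 94.0%, 87.2% and 87.7% in BMP LOF, 87.2%, 93.3% and 87.6% in Nodal LOF, 90.2%, 92.2% and 90.9% with both inhibitors, and 98.1%, 94.9% and 90.4% in control. Shares in the groups with the MO rested on 24 counts in 1 library and at most 1 in the others. All 7 comparisons with the control had 3 libraries against 3, where an exact two-sided permutation test cannot give a p below 0.1, and none was below it. The log2 ratio of sia1 to sia2 differed by -1.21 between Nodal LOF and control (exact permutation p = 0.2, adjusted over the 7 comparisons 0.28).

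In the T-box experiment the same measure was looked at after the values above had been seen, in 5 comparisons. At stage 10+ the sia1 share was 84.4%, 85.9%, 85.1% and 78.3% in 4x zT LOF, against 92.0%, 88.6%, 91.4% and 90.7% in control MO, so that sia2 gained relative to sia1 in every LOF library. The mean log2 ratio was 2.35 ± 0.34 in 4x zT LOF and 3.28 ± 0.24 in control MO (SD, n = 4 each), a difference of -0.93. The exact two-sided permutation p was 0.0286, the smallest that 4 libraries against 4 can give, and 0.0476 after adjustment over the 5 comparisons. Since the replicate numbers pair the libraries, the differences were also tested within numbers, where an exact sign-flip test of 4 pairs cannot give a p below 0.125. It gave 0.125 here, and also for both differences with a p of 0.0286 given next, so that none of the 3 calls stands within numbers, in a test too small to pass the threshold of 0.1. At stage 11+ the ratios overlapped (difference of -0.38, exact permutation p = 0.543, and 0.16 with a pseudocount of 5).

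At stage 12+, where few counts were left, the share was 43.8%, 53.6%, 90.9% and, with 7 counts of each gene, an even split in 4x zT LOF, against 40.0%, 20.0%, 25.0% and 0.0% in control MO. The difference in the log2 ratio was 2.203 (exact permutation p = 0.0286, adjusted 0.0476), opposite in sign to that at stage 10+, and it was 0.80 with a pseudocount of 5 in place of 0.5. In control MO embryos the share was above 80% at stage 11+, at 97.4%, 96.0%, 86.5% and 84.0%, and at most 40.0% at stage 12+, a difference in log2 ratio of -5.10 (exact permutation p = 0.0286, adjusted 0.0476), or -3.21 with a pseudocount of 5. The control libraries of stage 12+ held 6 counts of sia1 and 16 of sia2 in all, so the 95% Wilson interval of a single library's share reached from 0.0% to 56.1% in replicate 4 and from 16.8% to 68.7% in replicate 1.

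**Figure D3:**
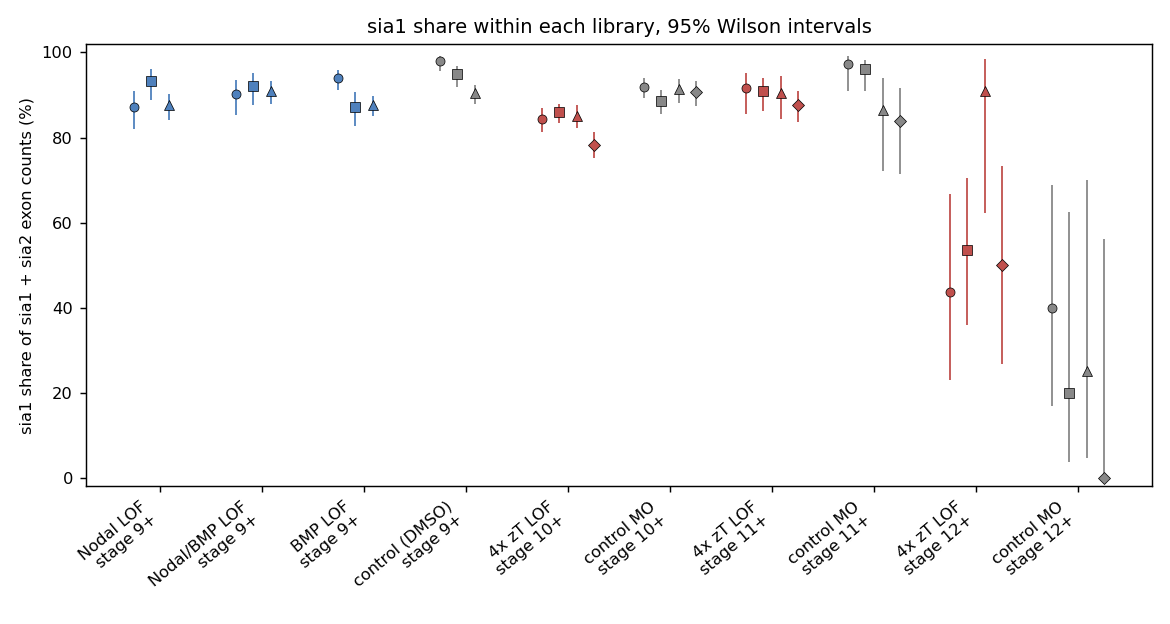
Share of sia1 in the summed exon counts of sia1 and sia2 (percent) in each library with its 95% Wilson interval, for the 4 stage 9+ groups without β-catenin MO and for 4x zT LOF and control MO at stages 10+, 11+ and 12+. All 4 shares of 4x zT LOF at stage 10+ lie below those of control MO, and the shares at stage 12+ have the widest intervals.

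Intron counts gave little. sia1 had 0 to 4 intron counts in libraries with the MO and 0 to 12 in those without, and sia2 had 0 in each of the libraries with the MO and 0 to 2 in those without. In all, sia1 had 21 intron counts in the 12 libraries with the MO and 74 in the 12 without. Its exons had 25 and 3930 counts in these libraries, so the direction was shared but the drop on introns was far smaller. In the T-box experiment sia1 introns had 11, 8, 7 and 9 counts in 4x zT LOF at stage 12+, against 18, 1, 16 and 7 in control MO, at a stage when its exons had at most 15. In the T-box experiment the intron counts of sia1 thus did not follow its exon counts. sia2 was too low on introns to be tested.

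Both genes were enriched in labelled RNA at the mid-blastula transition. At stage 8+ sia1 had 60 read pairs in the 4sU-enriched library and 67 in the input, and sia2 had 68 in the 4sU-enriched library and 52 in the input. After scaling by size factors, this made sia1 10.1-fold (95% interval of 6.99 to 14.5) and sia2 14.7-fold (10.1 to 21.5) enriched over input. The median of the 11565 genes with at least 10 input pairs was 0.767-fold, and 17.4% of them reached 2-fold. The value of sia1 was above that of 96.1% of these genes and the value of sia2 above that of 97.8%. There was 1 library of each kind, so no replicates and no test stand behind these values.

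At stage 10+ sia1 had 52 pairs in the 4sU-enriched library and 55 in the input, an enrichment of 6.21-fold (4.17 to 9.24). sia2 had 8 pairs in the 4sU-enriched library and 23 in the input, or 2.28-fold (0.883 to 5.29). This interval includes a ratio of 1 and overlaps that of sia1, but lies above the median of all genes. The median over 11466 genes was 0.682-fold, and 23.3% reached 2-fold. The value of sia1 was above that of 91.8% of these genes and the value of sia2 above that of 79.1%. The sia1 share of their pairs at stage 8+ was 46.9% (38.4% to 55.5%) in 4sU-enriched RNA and 56.3% (47.3% to 64.9%) in input, as Wilson intervals. At stage 10+ it was 86.7% (75.8% to 93.1%) in 4sU-enriched RNA and 70.5% (59.6% to 79.5%) in input. In poly(A) RNA of control MO embryos at stage 10+ the share was 88.6% to 92.0%. Those libraries differ in embryos, RNA selection and read counting, and the part of each in the share was not tested.

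nodal3.1 was 13.8-fold enriched at stage 8+ and 9.03-fold at stage 10+, and nodal6 21.9-fold and 7.70-fold. sia.3 was 11.9-fold enriched at stage 8+ (8.09 to 17.4), with 59 pairs in the 4sU-enriched library and 56 in the input. At stage 10+ it had 39 pairs in the 4sU-enriched library and 3 in the input, a ratio of 85.4 (27.1 to 432) below the minimum of 10 input pairs. Levels in this table and in the poly(A) libraries were counted and scaled separately and were not compared.

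**Figure D4:**
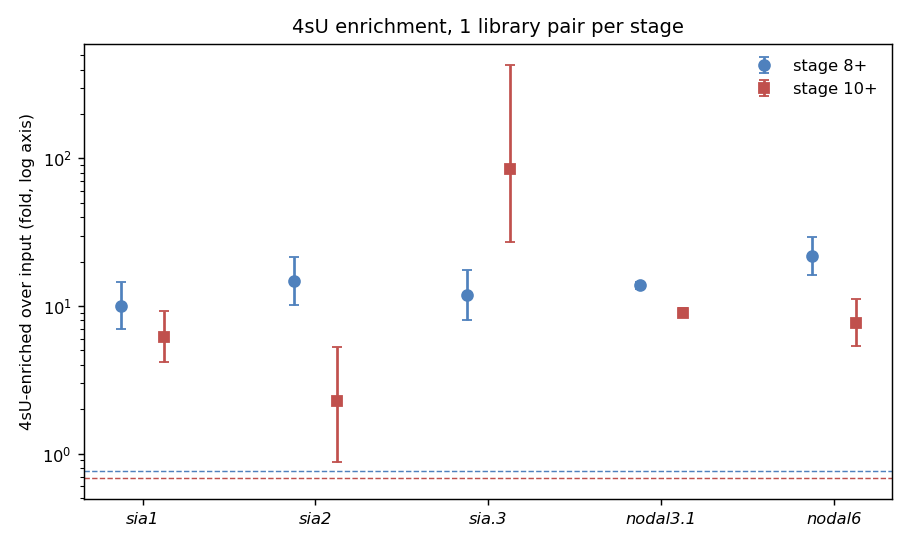
Ratio of 4sU-enriched to input read pairs after size-factor scaling (fold, log axis) for sia1, sia2, sia.3, nodal3.1 and nodal6 at stage 8+ (circles) and stage 10+ (squares), with 95% counting intervals and dashed lines at the median of all genes with at least 10 input pairs. Only the interval of sia2 at stage 10+ reaches below 1 among the 10 values.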

How the data were processed

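Poly(A) RNA was sequenced from 10 to 15 embryos per library. Per the labels and the methods of the study, STAR 2.5.3a placed the paired reads on genome v7.1, reads on exons and introns were counted without strand, and the authors deposited raw counts for each library. For 4sU-labelled RNA, from 30 embryos per sample, ribosomal RNA was depleted, pairs were aligned with Bowtie2 2.1.0 to transcripts, and uniquely aligned pairs were deposited as counts. The line of unmapped pairs (95.5% of 4sU-enriched and 39.5% of input pairs at stage 8+, 91.3% and 50.4% at stage 10+) and 275 other lines without a gene ID of the assembly stayed out of totals and tests.

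Counts were tested in R 4.3.3 with edgeR 4.0.16 (TMM, filterByExpr, quasi-likelihood, Benjamini-Hochberg at 0.1), in 1 fit over the 24 libraries of each experiment. Both genes and sia.3 passed the filter in both. CPM divides by TMM-scaled library sizes. Enrichment used DESeq2-type size factors over gene lines. Permutation tests and intervals used scipy 1.17.1, with a pseudocount of 0.5 in the log2 ratio and a floor of 3 counts for a group at 0. Groups and replicate numbers came from the labels.

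The study collected LOF and control embryos in parallel from the same mothers, and same-numbered libraries deviated together from their group means (r of 0.555 to 0.803 over 21 pairs at stage 9+ and 0.518 to 0.764 over 12 pairs in the T-box experiment, against at most -0.19 and 0.0929 for different numbers), so the numbers pair the libraries. The tests have no block, as in the study, and the block was an alternative. Within each group of poly(A) libraries, no library was a copy of another, and the check did not cover libraries of different groups.

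Named genes are sia1, sia2, sia.3, the other early β-catenin targets, ctnnb1, gsc, chrd and the 5 genes most like each member. lhx1, foxa4, ventx3.1 and szl, named beside a count, and the marker genes fall outside this rule. The members and lists were chosen with earlier results of these data known. The alternatives were DESeq2 1.42.0, library totals, no filter, the block, intron counts, fits of the groups alone and leaving out each replicate. The fits were first tested on simulated data.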

Additional observations from a re-analysis of the deposited data

How the results depend on the processing

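Across the alternatives, 555 values counted as unchanged, 38 lost their call, 4 gained one, 28 changed direction and 5 moved further than allowed for unchanged. For fitted changes, unchanged means the same side of the threshold and, where there was one, the same direction. Values uncalled in both settings are included. For the ratios it means the same direction and a shift within the SD between libraries, and for 4sU enrichment a value within the counting interval. The replicate block changed 1 call of a siamois gene level, that of sia1 in 4x zT LOF at stage 10+ (0.60), and turned the uncalled Wnt by Nodal term of sia2 to -0.093 and the uncalled change of sia.3 in Nodal LOF to 0.043. It also called sia.3 in Wnt LOF (-4.28), and 3 of the 5 genes most like sia2 were shared with it. Within replicate numbers, the ratio differences of -0.93 and 2.203 in 4x zT LOF at stages 10+ and 12+ and of -5.10 between control stages 11+ and 12+ had a p of 0.125, the smallest possible, and lost their call. The block changed no other call of sia1 or sia2. The block raised the number of genes called in Wnt LOF to 636, against 184 without it, in Wnt/Nodal/BMP LOF to 1303, against 478, and at stage 10+ in 4x zT LOF to 5718, against 2985. Leaving out replicate 2 lowered the Wnt LOF number to 13 and the Wnt/Nodal/BMP LOF number to 88.

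On intron counts, the sia1 log2 changes were -2.27 in Wnt/Nodal LOF, -0.75 in Wnt/Nodal/BMP LOF (the triple LOF), -1.27 in both Wnt and Wnt/BMP LOF and -0.38 between control stages 10+ and 11+, and none was called. They turned to 0.91 in Nodal LOF, 0.53 in Nodal/BMP LOF, 0.0021 in Wnt/BMP against Wnt LOF, -0.30, -0.58 and -0.79 in 4x zT LOF at stages 10+, 11+ and 12+, -0.57 over the stages and 0.60 between control stages 11+ and 12+. sia1 had at most 18 intron counts in any library, so that these values rest on few counts. A fit of the groups compared alone gave -5.93 for sia1 in the triple LOF and ended its call. Without Wnt/Nodal/BMP LOF replicate 3, an alternative chosen after seeing the data, sia1 in this group stood at -11.65 against control, and the difference of the group from Wnt LOF was -1.83 for sia1, 0.255 for sia2 and -2.63 for sia.3. A pseudocount of 5 gave sia1 to sia2 ratio differences of 0.16 in 4x zT LOF at stage 11+, -0.42 between control stages 10+ and 11+, 0.80 in 4x zT LOF at stage 12+ and -3.21 between control stages 11+ and 12+.

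With 1 replicate left out of every group, the log2 changes of sia1 ran from -11.88 to -11.14 in Wnt/BMP LOF, from -11.14 to -9.54 in Wnt LOF, from -11.14 to -5.53 in the triple LOF, from 0.0 to 4.11 in the triple against Wnt LOF, and from 0.83 to 1.64 in 4x zT LOF at stage 11+. Those of sia2 ran from -8.38 to -6.37 in Wnt/BMP LOF, -8.38 to -4.00 in both Wnt and Wnt/Nodal LOF, -8.22 to -4.24 in the triple LOF, -0.66 to 0.76 with both inhibitors, -0.33 to 1.02 in Nodal LOF, -2.39 to 2.11 in Wnt/Nodal/BMP against Wnt LOF, 1.17 to 1.79 in 4x zT LOF at stage 10+ and -0.12 to 0.52 between control stages 11+ and 12+. For the Wnt by Nodal term they ran from -1.58 to 0.57 for sia1 and from -1.02 to 0.33 for sia2. Those of sia.3 ran from -0.35 to 0.69 in Nodal LOF, -0.69 to 0.84 in Nodal/BMP LOF, -3.18 to 1.24 in Wnt/Nodal/BMP against Wnt LOF and -0.34 to 0.15 in Nodal/BMP against Nodal LOF. The ratio differences ran from -5.64 to -2.91 in Wnt LOF, from -5.64 to -3.70 in Wnt/Nodal LOF and from -0.13 to 0.69 between control stages 10+ and 11+. The cause of these shifts was not tested. Counts of 0 or 1 limit every comparison among the groups with the MO, and the few siamois counts at stage 12+ limit the ratio there.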
